A study of Homo sapiens with 9 samples.

Results

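The genes of sterol and fatty acid synthesis were examined in RNA-seq of H1299 cells, a human non-small cell lung carcinoma line, after depletion of FIBP, an intracellular protein that binds acidic fibroblast growth factor. The 34 genes were chosen by symbol, as enzymes of the mevalonate pathway (8 genes), enzymes from squalene to cholesterol (12 genes), the SREBP system with a sterol transfer protein (6 genes), and enzymes of fatty acid synthesis (8 genes). All 34 were found among the 60966 genes of the deposited tables, through 447 of 244443 transcripts, and all 34 passed the filter of at least 1 FPKM in at least 3 samples, as did 14985 genes in all. FPKM, fragments scaled to transcript length and to the number of mapped fragments, were summed over the transcripts of each gene.

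All 9 samples were cells of this 1 line, transfected with siRNA and collected after 48 h, with siRNA at 100 nM. The 3 Scramble samples received a scrambled control siRNA, 3 samples received Si-FIBP#1 and 3 received Si-FIBP#2, both directed against FIBP. Poly(A) RNA was sequenced in paired ends. The labels number the samples of a group but do not say that they came from separate cultures, so the p-values measure the spread between these samples, which may be technical.

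Cells build cholesterol from acetyl-CoA through mevalonate, farnesyl diphosphate, squalene and lanosterol, and they build fatty acids from the same acetyl-CoA through malonyl-CoA. Both routes are controlled by the SREBP transcription factors, which are made as membrane proteins of the endoplasmic reticulum, escorted by SCAP to the Golgi apparatus for cleavage when sterols are scarce, and held back with SCAP by the INSIG proteins when sterols are plentiful. Released SREBPs bind sterol regulatory elements in the promoters of the enzyme genes, and dividing tumour cells draw on both routes for membrane lipids.

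FIBP was measured first, as the targeted gene. FIBP stood at 88.38, 79.49 and 77.74 FPKM in Scramble, at 7.49, 7.77 and 4.30 FPKM under Si-FIBP#1, and at 7.13, 5.92 and 8.21 FPKM under Si-FIBP#2. All 6 samples with an siRNA against FIBP were below all 3 Scramble samples, which matches the labels. The summed FPKM of a sample ranged from 781058 to 818104, and depth, estimated from the steps between low FPKM values, from 20100000 to 24050000 fragments. Of 5 markers chosen for a carcinoma line, the keratins KRT8 and KRT18 and the mesenchymal filament VIM were expressed and fell with both siRNAs, while KRT19 and EPCAM were below 1 FPKM in every sample. The summed level of the 5 was 3726.3 to 3954.3 FPKM in Scramble, 2433.2 to 2756.8 FPKM under Si-FIBP#1 and 1802.6 to 2502.2 FPKM under Si-FIBP#2, most of it VIM, at 3230, 2310 and 1990 FPKM in the group means. Among 8 markers of other cell types only CD68 reached 1 FPKM in the Scramble mean, at 32.0 FPKM, and COL1A1 went from 0.0767 FPKM to 0.687 and 1.09 FPKM in the group means. The summed level of these 8 genes was 31.7 to 33.6 FPKM in Scramble, 39.1 to 41.8 FPKM under Si-FIBP#1 and 51.9 to 68.8 FPKM under Si-FIBP#2, and CD3E was at 0 in all samples. All 8 of 8 proliferation genes (MKI67, TOP2A, CCNB1, CDK1, PCNA, MCM2, MCM5 and RRM2) fell with both siRNAs. By the test described below, 19.9% of all tested genes fell under Si-FIBP#1 and 17.7% under Si-FIBP#2. The summed level of the proliferation genes was 961.4 to 977.3 FPKM in Scramble, 286.0 to 315.5 FPKM under Si-FIBP#1 and 337.1 to 406.7 FPKM under Si-FIBP#2. The part of these differences in the changes below was not tested.

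The promoter windows of 4 genes are shown because these genes changed by over 1.5-fold (SCD, FDPS and TM7SF2) or, of the 30 genes with a window, hold the only full match to the sterol regulatory element (SREBF2). SCD, FDPS and TM7SF2 were picked after their values had been seen. ELOVL6 and GGPS1, which also changed by over 1.5-fold and have windows, are not printed; the ELOVL6 window holds a GC box and no CCAAT, and of the 3 GGPS1 windows 1 holds CCAAT. Each window runs from 250 bases before to 50 bases after a start site that RefSeq gives on GRCh38.p14, all on the plus strand, written 5′ to 3′, and capitals mark the motifs TCACNCCAC (sterol regulatory element), CCAAT and GGGCGG (GC box) on either strand; the E-box CACGTG was searched as well and is in none of the 4.
SCD, chr10:100346983-100347282: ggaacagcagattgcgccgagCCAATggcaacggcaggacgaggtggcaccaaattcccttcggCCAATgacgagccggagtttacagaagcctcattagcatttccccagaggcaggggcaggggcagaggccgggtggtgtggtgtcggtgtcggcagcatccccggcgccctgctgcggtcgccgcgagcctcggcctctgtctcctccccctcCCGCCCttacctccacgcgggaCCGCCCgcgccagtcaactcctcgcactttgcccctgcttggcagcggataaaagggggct
FDPS, chr1:155308616-155308915: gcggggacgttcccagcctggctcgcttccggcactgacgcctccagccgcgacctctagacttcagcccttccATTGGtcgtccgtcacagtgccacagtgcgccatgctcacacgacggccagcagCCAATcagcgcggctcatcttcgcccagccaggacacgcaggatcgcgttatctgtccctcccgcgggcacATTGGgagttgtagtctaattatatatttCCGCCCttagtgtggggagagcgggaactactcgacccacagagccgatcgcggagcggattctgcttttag
TM7SF2, chr11:65111622-65111921: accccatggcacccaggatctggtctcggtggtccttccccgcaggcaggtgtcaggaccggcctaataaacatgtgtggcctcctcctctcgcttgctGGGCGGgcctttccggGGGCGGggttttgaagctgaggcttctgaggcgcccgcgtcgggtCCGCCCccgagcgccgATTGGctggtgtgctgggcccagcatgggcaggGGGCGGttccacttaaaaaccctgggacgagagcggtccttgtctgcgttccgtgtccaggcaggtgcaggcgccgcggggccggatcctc
SREBF2, chr22:41832855-41833154: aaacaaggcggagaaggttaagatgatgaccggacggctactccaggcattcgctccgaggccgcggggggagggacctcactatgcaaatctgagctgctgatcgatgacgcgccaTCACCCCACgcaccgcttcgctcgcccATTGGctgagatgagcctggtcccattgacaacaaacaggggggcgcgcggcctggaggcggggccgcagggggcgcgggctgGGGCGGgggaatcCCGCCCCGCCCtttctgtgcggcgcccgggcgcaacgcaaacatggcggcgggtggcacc

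RefSeq windows were matched by symbol for 30 of the 34 genes, in 42 windows, and not for ACAT2, FDFT1, SQLE and FASN. A sterol regulatory element was found in 1 of these 30 genes, SREBF2, with its first base 133 bases before the start site, and in 1.39% of all 27305 genes with a window. CCAAT was found in a window of 22 of the 30 genes (73.3%), against 39.7% of all genes and 43.5% of the 10204 tested genes with a window. The GC box was found for 27 of the 30 genes, against 77.5% of the tested genes, and the E-box for 5 genes (16.7%), against 12.8%. In SCD the CCAAT boxes begin 229 and 186 bases before the start site, in FDPS 176, 122 and 51 bases before it, and in TM7SF2 a single one begins 74 bases before it. A match is a description of the letters, and no match says only that these letters are not in this window.

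In Scramble cells the levels of the 34 genes spanned from 8.77 to 865 FPKM. SCD stood highest, at 865 ± 15.9 FPKM (SD, n = 3), followed by FDPS at 339 ± 3.74, FDFT1 at 194 ± 0.701 and FASN at 178 ± 3.78 FPKM, and these neighbours did not overlap between samples. ELOVL5, ACAT2, HMGCS1 and SREBF1 also had a mean of at least 100 FPKM, while 6 genes were under 20 FPKM: HSD17B7, MVK, ELOVL6, GGPS1, FADS2 and INSIG2. Of the 33 pairs of neighbours in this order, 15 were separate and 18 overlapped in their Scramble samples, among them ACAT2, HMGCS1, SREBF1 and MVD at about the same level, and TM7SF2 with STARD4 and SC5D.

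**Figure D1:**
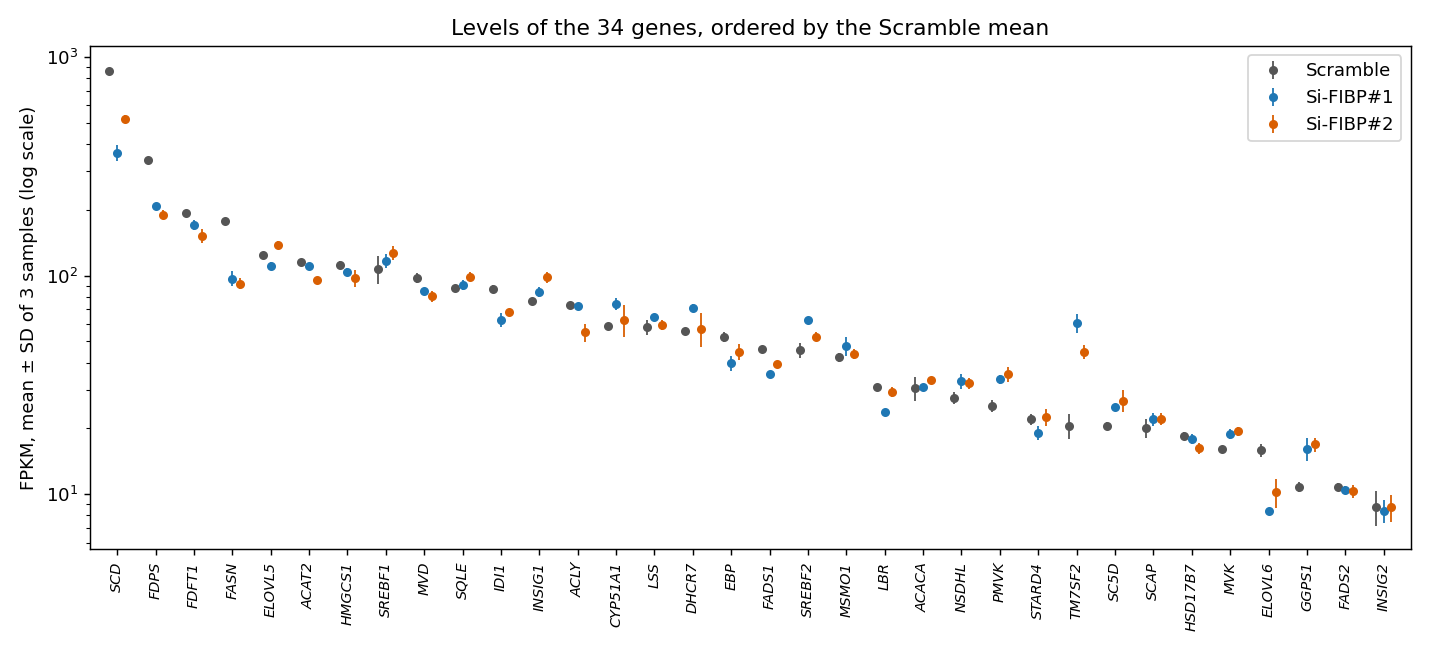
Level of each of the 34 genes in FPKM on a log scale (points, mean of 3 samples; bars, SD) in Scramble, Si-FIBP#1 and Si-FIBP#2 cells, ordered by the Scramble mean. SCD fell from 865 to 364 and 521 FPKM and stayed the highest of the 34, while TM7SF2 moved up from 20.5 to 60.7 and 44.7 FPKM.

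Together the 34 genes summed to 3086.1 to 3101.9 FPKM in Scramble, 2341.4 to 2443.5 FPKM under Si-FIBP#1 and 2460.6 to 2530.1 FPKM under Si-FIBP#2, without overlap between any of the groups. As a share of all FPKM this was 0.394 ± 0.002% in Scramble (SD, n = 3), 0.296 ± 0.00643% under Si-FIBP#1 and 0.318 ± 0.00551% under Si-FIBP#2. The fatty acid genes carried most of the difference, from 1322.8 to 1359.0 FPKM in Scramble to 701.1 to 757.9 FPKM under Si-FIBP#1 and 884.5 to 912.4 FPKM under Si-FIBP#2, and SCD alone, from 865 to 364 and 521 FPKM in the group means, made up the larger part of that. The mevalonate genes summed to 794.1 to 811.6, 620.3 to 653.6 and 582.8 to 613.6 FPKM in the same order. The enzymes from squalene to cholesterol summed to 658.5 to 673.8, 699.0 to 751.4 and 636.7 to 715.2 FPKM, so that the Si-FIBP#2 samples overlapped the Scramble samples there. The 6 genes of the SREBP system summed to 263.0 to 303.1, 307.0 to 320.9 and 319.1 to 346.2 FPKM, with all depleted samples above Scramble. SREBF1, with the highest level of these 6 genes, overlapped between the groups. All sums here are of unscaled FPKM. Divided by the factors of the median-ratio scaling described below, the SREBP sums of Scramble and the depleted samples overlapped, through the first Scramble sample. So did the squalene to cholesterol sums of Scramble and Si-FIBP#1, and the 34-gene sums of the siRNAs. The 34-gene, mevalonate and fatty acid sums of Scramble stayed above those of both siRNAs. FPKM are relative to the library, and in bulk RNA fewer cells that express a gene and less of its RNA per cell cannot be told apart.

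The comparison of each siRNA with Scramble asked how the steps of both routes moved when FIBP was depleted; both comparisons use the same 3 Scramble samples. Under Si-FIBP#1, 9 of the 34 genes rose and 11 fell (limma on log2(FPKM + 1), Benjamini-Hochberg adjusted p below 0.05), beside 27.8% of all tested genes that rose and 19.9% that fell. Under Si-FIBP#2, 10 rose and 12 fell, beside 31.1% and 17.7% of all tested genes. The median log2 fold change of the 34 genes was -0.03 under Si-FIBP#1 and 0.02 under Si-FIBP#2, against 0.07 and 0.11 over all tested genes. On this scale the share of the 34 genes that rose was near the background and the share that fell was above it, and the former changed with the scaling described next. The background reaches down to the filter of 1 FPKM, while the Scramble means of the 34 genes were 8.77 FPKM or more. No share over genes of like level was computed.

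With a change over 2-fold required as well, TM7SF2 rose with both siRNAs and SCD fell under Si-FIBP#1. These are 1 of 34 genes up and 1 down under Si-FIBP#1, beside 2.55% up and 3.11% down of all tested genes, and 1 up and 0 down under Si-FIBP#2, beside 2.92% up and 2.13% down. FASN, FDPS and SCD came nearest to 2-fold lower under Si-FIBP#2 (log2 fold change -0.95, -0.83 and -0.73). After median-ratio scaling, described below, TM7SF2 was under 2-fold with Si-FIBP#2 (0.95) and FASN past it (-1.10, limma adjusted p = 2.46e-06), while both calls under Si-FIBP#1 stayed past it. All 6 depleted samples were above all 3 Scramble samples in 8 of the 34 genes, beside 26.3% of the tested genes, and below them in 10, beside 16.5%. The 8 were MVK, PMVK, GGPS1, TM7SF2, NSDHL, SC5D, SREBF2 and INSIG1, and the 10 were HMGCS1, MVD, IDI1, FDPS, FDFT1, EBP, FASN, SCD, FADS1 and ELOVL6. This separation was counted on unscaled FPKM only. The factors that median-ratio scaling divides by were 0.934 to 0.9716 in Scramble and 1.0111 to 1.0697 in the depleted samples. Divided by these factors, INSIG1, SREBF2 and NSDHL overlapped between Scramble and the depleted samples. The other genes of the 8 stayed above Scramble, MVK only just, and the 10 stayed below it. The share of all tested genes was not computed on that scale.

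The balance of rises and falls depended on the scaling. When each sample was scaled by the median of its gene-wise ratios, the median log2 fold change of all tested genes moved from 0.11 to -0.02 under Si-FIBP#2 and from 0.07 to -0.02 under Si-FIBP#1. After this scaling 4 of the 34 genes rose and 14 fell under Si-FIBP#1, beside 21.0% and 25.5% of all tested genes. Under Si-FIBP#2, 5 rose and 15 fell, beside 20.5% and 26.5%. The share of the 34 genes that rose was then below that of all genes with both siRNAs, and the share that fell was above it. The genes that rose under both scalings were PMVK, GGPS1, TM7SF2 and SREBF2 under Si-FIBP#1, and PMVK, GGPS1, TM7SF2, SC5D and INSIG1 under Si-FIBP#2. All genes that fell without it fell with it.

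**Figure D2:**
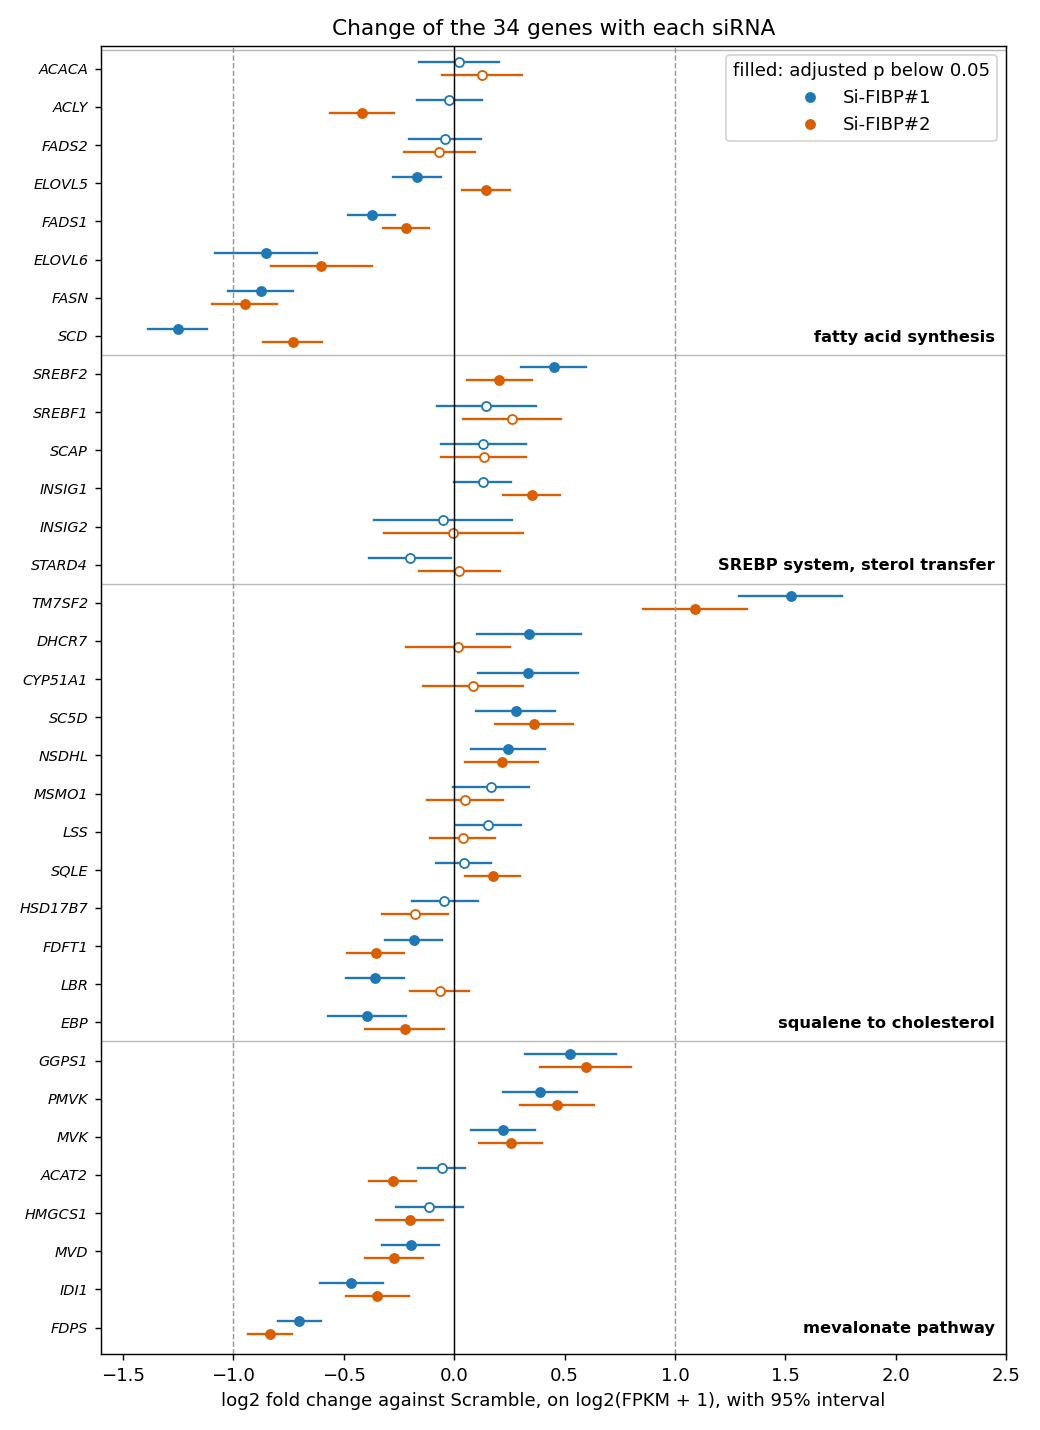
Log2 fold change against Scramble on log2(FPKM + 1) for each of the 34 genes (points; lines, 95% interval) under Si-FIBP#1 and Si-FIBP#2, grouped by role; filled points have an adjusted p below 0.05 and dashed lines mark a 2-fold change. SCD, FASN, ELOVL6 and FDPS lie left of -0.5 with both siRNAs, and TM7SF2 alone lies right of 1.

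In fatty acid synthesis, 5 of 8 genes fell and none rose under Si-FIBP#1, beside 19.9% and 27.8% of all tested genes, and 5 fell and 1 rose under Si-FIBP#2, beside 17.7% and 31.1%. After median-ratio scaling, 5 fell and none rose under Si-FIBP#1, beside 25.5% and 21.0%, and 6 fell and none rose under Si-FIBP#2, beside 26.5% and 20.5%. The median log2 fold change of the 8 genes was -0.27 under Si-FIBP#1 and -0.32 under Si-FIBP#2 without this scaling. SCD, FASN and ELOVL6 fell most under Si-FIBP#1, which covers the synthase, the elongase that lengthens its product and the desaturase that follows.

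SCD, stearoyl-CoA desaturase, puts the double bond into oleic and palmitoleic acid (ENSG00000099194, chromosome 10, 100347124 to 100364834, plus strand, GRCh38 in GENCODE release 29). SCD was at 847.73, 878.84 and 869.14 FPKM in Scramble, at 334.20, 359.94 and 396.61 FPKM under Si-FIBP#1 and at 539.09, 503.05 and 519.85 FPKM under Si-FIBP#2. The 3 groups were separate, with Scramble highest and Si-FIBP#1 lowest. SCD fell to 42.0% of Scramble under Si-FIBP#1 (log2 fold change -1.25, SE 0.06, limma adjusted p = 6.61e-07) and to 60.2% under Si-FIBP#2 (-0.73, SE 0.06, adjusted p = 1.3e-05). The tables hold a single SCD transcript, so no choice between transcripts enters its value.

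FASN, the multi-enzyme fatty acid synthase that makes palmitate, lies on chromosome 17 (ENSG00000169710, 82078333 to 82098332, minus strand). FASN was at 182.48, 175.27 and 176.90 FPKM in Scramble, at 102.76, 99.35 and 88.15 FPKM under Si-FIBP#1 and at 93.64, 86.02 and 96.12 FPKM under Si-FIBP#2. The samples of both siRNAs overlapped one another and all lay far below Scramble. FASN fell to 54.3% of Scramble under Si-FIBP#1 (log2 fold change -0.88, SE 0.07, limma adjusted p = 6.63e-06) and to 51.6% under Si-FIBP#2 (-0.95, SE 0.07, adjusted p = 4.83e-06). The FASN transcript with the highest level, ENST00000306749, carried 55.8% to 58.5% of the sum in the Scramble samples and went from 101 to 56.2 and 54.8 FPKM in the group means.

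ELOVL6 lengthens saturated fatty acids, mainly palmitate to stearate, the substrate of SCD (ENSG00000170522, chromosome 4, 110045846 to 110199199, minus strand). ELOVL6 was at 14.56, 16.34 and 16.74 FPKM in Scramble, at 8.21, 8.52 and 8.29 FPKM under Si-FIBP#1 and at 11.88, 8.74 and 9.94 FPKM under Si-FIBP#2. Every depleted sample was below every Scramble sample, and the Si-FIBP#1 samples were the closest together. ELOVL6 fell to 52.5% of Scramble under Si-FIBP#1 (log2 fold change -0.85, SE 0.10, limma adjusted p = 1.29e-04) and to 64.1% under Si-FIBP#2 (-0.60, SE 0.10, adjusted p = 1.04e-03).

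Of the genes of polyunsaturated fatty acids, FADS1 and ELOVL5 passed the test with both siRNAs and FADS2 with neither. FADS1, a desaturase of long-chain polyunsaturated acids, went from 46.0 ± 0.777 FPKM to 35.3 ± 0.865 under Si-FIBP#1 and 39.4 ± 0.881 under Si-FIBP#2 (SD, n = 3), and fell with both (log2 fold change -0.37 and -0.22, limma adjusted p = 1.77e-04 and 4.04e-03). FADS2, which acts before FADS1, was at 10.8 ± 0.431, 10.5 ± 0.433 and 10.3 ± 0.694 FPKM and fell only after median-ratio scaling and under Si-FIBP#2 (-0.20, adjusted p = 0.043). ELOVL5, which elongates polyunsaturated acids, was at 124 ± 3.23, 111 ± 4.38 and 138 ± 5.50 FPKM. It fell under Si-FIBP#1 (log2 fold change -0.17, limma adjusted p = 0.018) and rose under Si-FIBP#2 (0.15, adjusted p = 0.034), a rise that was absent after median-ratio scaling (-0.004, adjusted p = 0.95).

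ACLY and ACACA supply carbon to FASN. ACLY, ATP citrate lyase, makes cytosolic acetyl-CoA. It was at 72.30 to 74.27 FPKM in Scramble, at 71.21 to 73.14 FPKM under Si-FIBP#1 and at 51.74 to 61.14 FPKM under Si-FIBP#2. ACLY thus fell under Si-FIBP#2 (log2 fold change -0.42, SE 0.07, limma adjusted p = 5.97e-04) and did not pass the test under Si-FIBP#1 (-0.02, adjusted p = 0.81). Under the equal sum under Si-FIBP#1, its transcript ENST00000353196 stood at 37.55, 33.31 and 37.68 FPKM against 29.81, 25.49 and 26.27 FPKM in Scramble, and ENST00000352035 at 4.98, 13.82 and 7.74 FPKM against 15.87, 24.68 and 22.98 FPKM; these transcript levels are estimates and were not tested. ACACA, acetyl-CoA carboxylase, which makes malonyl-CoA, was at 30.5 ± 3.71, 30.8 ± 1.03 and 33.2 ± 0.447 FPKM and passed the test with neither siRNA.

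**Figure D3:**
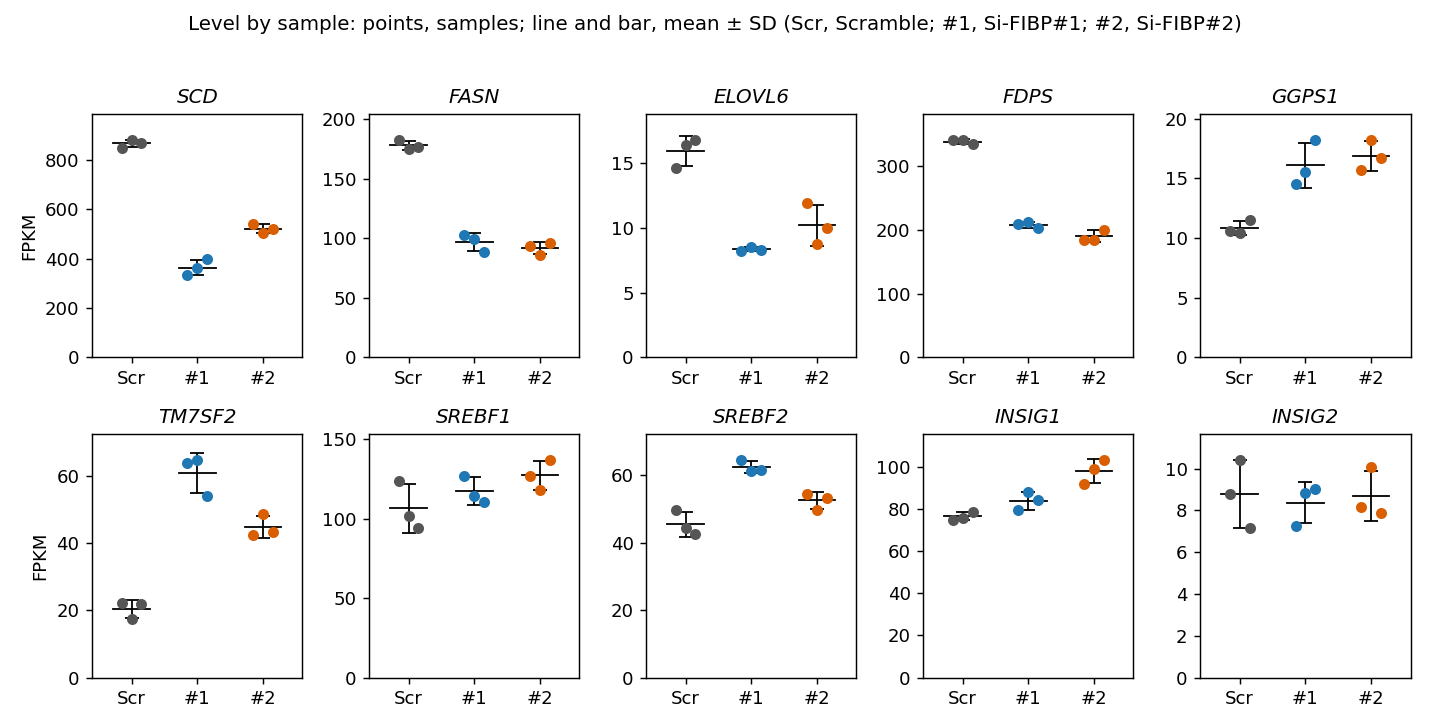
FPKM by sample (points) with mean and SD for the 6 genes that changed by over 1.5-fold in a comparison and for SREBF1, SREBF2, INSIG1 and INSIG2; each axis starts at 0. The Scramble samples lie above all others for SCD, FASN, ELOVL6 and FDPS and below all others for GGPS1 and TM7SF2, and the groups overlap for SREBF1 and INSIG2.

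In the mevalonate pathway, 3 of 8 genes rose and 3 fell under Si-FIBP#1, beside 27.8% and 19.9% of all tested genes, and 3 rose and 5 fell under Si-FIBP#2, beside 31.1% and 17.7%. The genes that rose with both were the kinases MVK and PMVK and the branch enzyme GGPS1, and those that fell with both were MVD, IDI1 and FDPS. After median-ratio scaling, 2 rose and 5 fell with either siRNA, beside 21.0% and 25.5% under Si-FIBP#1 and 20.5% and 26.5% under Si-FIBP#2. The median log2 fold change of the 8 genes without it was -0.08 under Si-FIBP#1 and -0.24 under Si-FIBP#2.

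FDPS, farnesyl diphosphate synthase, makes the last intermediate shared by sterols and the isoprenoids used in protein prenylation (ENSG00000160752, chromosome 1, 155308748 to 155320666, plus strand). FDPS was at 341.07, 341.16 and 334.63 FPKM in Scramble, at 209.30, 211.90 and 203.28 FPKM under Si-FIBP#1 and at 184.52, 184.87 and 200.83 FPKM under Si-FIBP#2. Scramble stood apart from both siRNAs, and the Si-FIBP#2 samples were the lowest. FDPS fell to 61.4% of Scramble under Si-FIBP#1 (log2 fold change -0.70, SE 0.04, limma adjusted p = 2.67e-06) and to 56.1% under Si-FIBP#2 (-0.83, SE 0.04, adjusted p = 1.33e-06). Of its 25 transcripts, the pair with the highest Scramble level, ENST00000467076 and ENST00000447866, went from 90.8 to 57.4 and 57.1 FPKM and from 85.6 to 36.4 and 34 FPKM. MSTRG.1815.3, a transcript that the authors assembled, moved less, from 37.3 to 35.1 and 27.1 FPKM. Assembled transcripts held 21.4% of the FPKM of FDPS. FDPS exons share 693 bases with the antisense gene RUSC1-AS1, which was at 4.06 FPKM on average.

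GGPS1, geranylgeranyl diphosphate synthase, extends the product of FDPS for prenylation (ENSG00000152904, chromosome 1, 235327350 to 235344532, plus strand). GGPS1 was at 10.55, 10.40 and 11.52 FPKM in Scramble, at 14.53, 15.54 and 18.20 FPKM under Si-FIBP#1 and at 15.74, 18.17 and 16.71 FPKM under Si-FIBP#2. All depleted samples were above all Scramble samples. GGPS1 rose to 148.7% of Scramble under Si-FIBP#1 (log2 fold change 0.53, SE 0.09, limma adjusted p = 1.19e-03) and to 155.9% under Si-FIBP#2 (0.60, SE 0.09, adjusted p = 5.74e-04). With FDPS falling and GGPS1 rising, the FPKM of FDPS was 29 to 32.8 times that of GGPS1 in Scramble, 11.2 to 14.4 times under Si-FIBP#1 and 10.2 to 12 times under Si-FIBP#2. GGPS1 shares 1422 exon bases with TBCE on the same strand in the annotation, so part of its reads could have been counted to either gene.

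The steps before FDPS moved by less. IDI1, which isomerises isopentenyl diphosphate, went from 86.7 ± 3.95 FPKM to 62.6 ± 4.62 under Si-FIBP#1 and 67.9 ± 2.10 under Si-FIBP#2 and fell with both (log2 fold change -0.47 and -0.35, limma adjusted p = 2.72e-04 and 1.50e-03). MVD, the decarboxylase before it, went from 97.2 ± 5.06 FPKM to 84.6 ± 2.21 and 80.4 ± 4.56 and fell with both (-0.20 and -0.27, adjusted p = 0.019 and 3.72e-03). The kinases upstream of MVD went the other way. MVK, mevalonate kinase, was at 16.1 ± 0.365, 18.9 ± 1.01 and 19.4 ± 0.994 FPKM (log2 fold change 0.22 and 0.26, limma adjusted p = 0.018 and 8.74e-03), but did not pass the test with median-ratio scaling (adjusted p = 0.16 and 0.20). PMVK, phosphomevalonate kinase, was at 25.4 ± 1.64, 33.5 ± 1.56 and 35.5 ± 2.83 FPKM and rose with both under either scaling (0.39 and 0.47, adjusted p = 2.07e-03 and 7.09e-04 without it).

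The first steps of the pathway fell under Si-FIBP#2. ACAT2, the thiolase that joins acetyl-CoA units, was at 115 ± 2.73 FPKM in Scramble, 111 ± 3.34 under Si-FIBP#1 and 94.9 ± 3.85 under Si-FIBP#2 (log2 fold change under Si-FIBP#2 -0.28, limma adjusted p = 1.06e-03; under Si-FIBP#1 -0.06, adjusted p = 0.36). HMGCS1, which makes HMG-CoA, was at 112 ± 4.03, 104 ± 4.01 and 97.6 ± 8.82 FPKM (-0.20, adjusted p = 0.031 under Si-FIBP#2; -0.11, adjusted p = 0.20 under Si-FIBP#1). After median-ratio scaling both also fell under Si-FIBP#1 (-0.16 and -0.21, limma adjusted p = 0.045 and 0.027). The call for HMGCS1 under Si-FIBP#2 was lost in 7 of 14 alternative settings, and 57.1% of its FPKM came from transcripts that the authors assembled rather than from Ensembl transcripts. On the opposite strand ACAT2 shares 1458 exon bases with SOD2-OT1 (0.85 FPKM on average), 1141 with SOD2 and 397 with TCP1 (290 FPKM), and without a stated strand the reads of such pairs cannot be told apart there.

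Between squalene and cholesterol, 5 of 12 genes rose and 3 fell under Si-FIBP#1, beside 27.8% and 19.9% of all tested genes, and 4 rose and 2 fell under Si-FIBP#2, beside 31.1% and 17.7%. After median-ratio scaling the balance turned, to 1 up and 3 down under Si-FIBP#1, beside 21.0% and 25.5%, and to 2 up and 4 down under Si-FIBP#2, beside 20.5% and 26.5%. The median log2 fold change of the 12 genes was 0.16 under Si-FIBP#1 and 0.04 under Si-FIBP#2, and 0.06 and -0.10 after that scaling. TM7SF2 was the only one of them past 2-fold.

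TM7SF2 is a sterol reductase that acts right after the lanosterol demethylase CYP51A1 (ENSG00000149809, chromosome 11, 65111845 to 65116384, plus strand). TM7SF2 was at 22.10, 17.45 and 22.00 FPKM in Scramble, at 63.65, 64.53 and 54.00 FPKM under Si-FIBP#1 and at 42.42, 48.51 and 43.12 FPKM under Si-FIBP#2. The 3 groups were separate, under Si-FIBP#1 highest. TM7SF2 rose to 296.0% of Scramble under Si-FIBP#1 (log2 fold change 1.52, SE 0.11, limma adjusted p = 4.09e-06) and to 217.8% under Si-FIBP#2 (1.09, SE 0.11, adjusted p = 3.4e-05). Its leading transcript, ENST00000279263, was at 8.49, 7.19 and 7.75 FPKM in Scramble, 23.81, 20.62 and 21.60 FPKM under Si-FIBP#1 and 18.23, 17.88 and 19.20 FPKM under Si-FIBP#2, so the rise was present in this transcript as well as in the sum of its 26 transcripts.

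LBR, the lamin B receptor of the inner nuclear membrane, carries the same reductase activity. LBR was at 29.80 to 31.74 FPKM in Scramble, 22.91 to 24.52 FPKM under Si-FIBP#1 and 28.32 to 31.14 FPKM under Si-FIBP#2. It fell under Si-FIBP#1 (log2 fold change -0.36, SE 0.06, limma adjusted p = 8.37e-04) and did not pass the test under Si-FIBP#2 (-0.07, adjusted p = 0.38). In FPKM, which are per length, TM7SF2 was 0.55 to 0.742 times LBR in Scramble, 2.20 to 2.78 times under Si-FIBP#1 and 1.38 to 1.71 times under Si-FIBP#2. TM7SF2 was thus below LBR in every Scramble sample and above it in every depleted sample, and their sum was 49.2 to 52.9, 78.5 to 88.6 and 71.2 to 76.8 FPKM.

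FDFT1, squalene synthase, the first enzyme committed to sterols, went from 194 ± 0.701 FPKM to 171 ± 9.22 under Si-FIBP#1 and 152 ± 10.6 under Si-FIBP#2 and fell with both (log2 fold change -0.18 and -0.36, limma adjusted p = 0.026 and 8.34e-04). SQLE, squalene epoxidase, a rate-limiting step, was at 87.5 ± 2.38, 90.4 ± 4.75 and 98.9 ± 4.61 FPKM. It rose under Si-FIBP#2 (0.17, limma adjusted p = 0.026) but not after median-ratio scaling (0.03, adjusted p = 0.75). LSS, which closes the rings of lanosterol, was at 58.0 ± 4.47, 64.6 ± 1.78 and 59.5 ± 3.24 FPKM and passed the test with neither siRNA, though it rose under Si-FIBP#1 in 2 of 14 alternative settings.

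CYP51A1 was at 59.70, 58.29 and 57.86 FPKM in Scramble, at 68.72, 77.70 and 76.43 FPKM under Si-FIBP#1 and at 57.36, 74.83 and 56.07 FPKM under Si-FIBP#2. DHCR7, a reductase of the last steps to cholesterol, was at 55.67, 54.25 and 57.54 FPKM, at 67.66, 73.51 and 71.36 FPKM, and at 47.74, 67.79 and 55.73 FPKM. In both genes the second Si-FIBP#2 sample stood with the Si-FIBP#1 samples, and the others at or below the Scramble level. Both rose under Si-FIBP#1 (log2 fold change 0.34 and 0.34, limma adjusted p = 0.021 and 0.024), a call lost with median-ratio scaling (adjusted p = 0.069 and 0.079), and passed no test under Si-FIBP#2 (adjusted p = 0.52 and 0.91). On the same strand CYP51A1 shares 2844 of its 3584 exon bases with AC000120.2 (0.019 FPKM on average) and 99 with AC000120.3 (5.08 FPKM). Part of its reads could likewise have been counted to either of these genes.

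Of the remaining sterol enzymes, NSDHL, a dehydrogenase of the demethylation steps, was at 27.6 ± 1.62, 32.9 ± 2.51 and 32.2 ± 1.93 FPKM and rose with both siRNAs (log2 fold change 0.24 and 0.22, limma adjusted p = 0.022 and 0.038), though not after median-ratio scaling (adjusted p = 0.13 and 0.46). SC5D, a sterol desaturase, was at 20.5 ± 0.891, 25.1 ± 0.611 and 26.8 ± 3.02 FPKM and rose with both (0.28 and 0.36, adjusted p = 0.016 and 4.14e-03), under Si-FIBP#1 not after that scaling (adjusted p = 0.076). EBP, the isomerase before SC5D, went the other way, from 52.6 ± 2.80 FPKM to 39.8 ± 3.13 and 44.9 ± 3.89 (-0.39 and -0.22, adjusted p = 2.80e-03 and 0.041). MSMO1, a methylsterol oxidase, at 42.3 ± 2.06, 47.7 ± 4.67 and 43.8 ± 2.29 FPKM, and HSD17B7, a ketosteroid reductase, at 18.5 ± 0.667, 17.9 ± 0.962 and 16.2 ± 0.888 FPKM, passed the test with neither siRNA. HSD17B7 fell under Si-FIBP#2 in 4 of 14 alternative settings, among them median-ratio scaling (-0.32, limma adjusted p = 3.50e-03), and MSMO1 rose under Si-FIBP#1 in 1. EBP under Si-FIBP#2 did not pass with a replicate block (-0.22, adjusted p = 0.066).

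In the SREBP system, 1 of 6 genes rose and none fell under Si-FIBP#1, beside 27.8% and 19.9% of all tested genes, and 2 rose and none fell under Si-FIBP#2, beside 31.1% and 17.7%. The median log2 fold change of the 6 genes was 0.13 and 0.17, against 0.07 and 0.11 over all tested genes. After median-ratio scaling 1 rose and 1 fell under Si-FIBP#1, beside 21.0% and 25.5% of all tested genes. Under Si-FIBP#2, 1 rose and none fell, beside 20.5% and 26.5%. The median log2 fold change of the 6 genes was then 0.03 and 0.02, against -0.02 and -0.02 over all tested genes. RNA levels do not show how much SREBP protein was cleaved.

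SREBF2 encodes SREBP-2, the factor most tied to cholesterol genes (ENSG00000198911, chromosome 22, 41833079 to 41907308, plus strand), and its promoter window above holds the sterol regulatory element. SREBF2 was at 49.76, 44.31 and 42.65 FPKM in Scramble, at 64.50, 61.34 and 61.74 FPKM under Si-FIBP#1 and at 54.55, 49.87 and 53.38 FPKM under Si-FIBP#2. Si-FIBP#1 was clearly above the rest. In unscaled FPKM the lowest Si-FIBP#2 sample was only just above the highest Scramble sample, and below it when divided by the factors of median-ratio scaling. SREBF2 rose under Si-FIBP#1 (log2 fold change 0.45, SE 0.07, limma adjusted p = 4.11e-04) and under Si-FIBP#2 (0.21, SE 0.07, adjusted p = 0.027), the latter not after median-ratio scaling (0.06, adjusted p = 0.48).

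SREBF1 encodes the SREBP-1 proteins, which favour fatty acid genes (ENSG00000072310, chromosome 17, 17810399 to 17837002, minus strand). SREBF1 was at 123.89, 101.55 and 94.52 FPKM in Scramble, at 127.30, 114.14 and 110.93 FPKM under Si-FIBP#1 and at 127.22, 118.38 and 136.88 FPKM under Si-FIBP#2. The groups overlapped, and the first Scramble sample was above 3 of the 6 depleted samples. The log2 fold change was 0.15 under Si-FIBP#1 (SE 0.10, limma adjusted p = 0.26) and 0.26 under Si-FIBP#2 (SE 0.10, adjusted p = 0.053). Without the first Scramble sample SREBF1 passed the test with both siRNAs (adjusted p = 0.031 and 5.84e-03), and with a replicate block it passed under Si-FIBP#2 (adjusted p = 0.035), where it passed in 5 of the 14 alternative settings.

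INSIG1, itself induced by SREBPs and a retainer of SCAP, lies on chromosome 7 (ENSG00000186480, 155297776 to 155310235, plus strand). INSIG1 was at 74.93, 75.88 and 78.67 FPKM in Scramble, at 79.54, 88.02 and 84.02 FPKM under Si-FIBP#1 and at 91.99, 98.95 and 103.02 FPKM under Si-FIBP#2. In unscaled FPKM the groups stood in that order without overlap. Divided by the factors of median-ratio scaling, the Scramble and Si-FIBP#1 samples overlapped. INSIG1 rose under Si-FIBP#2 (log2 fold change 0.35, SE 0.06, limma adjusted p = 8.07e-04) and did not pass the test under Si-FIBP#1 (0.13, SE 0.06, adjusted p = 0.089).

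INSIG2, its paralogue (ENSG00000125629, chromosome 2, 118088452 to 118110997, plus strand), was at 8.77, 10.40 and 7.14 FPKM in Scramble, at 7.24, 8.85 and 9.04 FPKM under Si-FIBP#1 and at 8.17, 10.07 and 7.86 FPKM under Si-FIBP#2. The groups overlapped fully, and the 95% interval of the log2 fold change ran from -0.37 to 0.26 under Si-FIBP#1 and from -0.32 to 0.31 under Si-FIBP#2. SCAP, the escort, was at 20.1 ± 2.04, 22.1 ± 1.51 and 22.1 ± 1.40 FPKM, with 56.1% of its FPKM from assembled transcripts. STARD4, which moves cholesterol between membranes, was at 22.0 ± 1.36, 19.1 ± 1.36 and 22.5 ± 2.02 FPKM. SCAP, STARD4 and INSIG2 passed the test with neither siRNA, but STARD4 fell under Si-FIBP#1 in 3 of 14 alternative settings, among them median-ratio scaling (log2 fold change -0.30, limma adjusted p = 0.014).

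Under Si-FIBP#1, 12 of the 20 calls held under all 14 alternative settings of the fit. These settings include leaving out each sample of the groups compared, but not the required 2-fold change. The 12 were PMVK, IDI1, FDPS, GGPS1, TM7SF2, LBR, EBP, SREBF2, FASN, SCD, FADS1 and ELOVL6. Under Si-FIBP#2, 15 of the 22 held, namely ACAT2, PMVK, MVD, IDI1, FDPS, GGPS1, FDFT1, TM7SF2, SC5D, INSIG1, FASN, SCD, ACLY, FADS1 and ELOVL6. The other 8 calls under Si-FIBP#1 were lost with several of the samples left out in turn, with 1 for SC5D. In those fits the fold changes stayed near their size. Median-ratio scaling also lost MVK, NSDHL, SC5D, CYP51A1 and DHCR7. It lowered their log2 fold changes from 0.22, 0.24, 0.28, 0.34 and 0.34 to 0.12, 0.15, 0.18, 0.23 and 0.24. FDFT1, CYP51A1 and DHCR7 were also lost with no filter, and NSDHL with Ensembl transcripts only. Without the second Scramble sample, MVD stood at -0.18, FDFT1 at -0.19, ELOVL5 at -0.16, MVK at 0.20, CYP51A1 at 0.33, SC5D at 0.26 and DHCR7 at 0.32 on the log2 scale (limma adjusted p between 0.054 for CYP51A1 and 0.071 for MVD), and NSDHL was lost without the third Scramble sample (0.20, adjusted p = 0.083) or the second Si-FIBP#1 sample (0.18, adjusted p = 0.087). The other 7 under Si-FIBP#2 were HMGCS1, MVK, SQLE, NSDHL, EBP, SREBF2 and ELOVL5, with the highest adjusted p over the settings between 0.10 (HMGCS1) and 0.95 (ELOVL5), and that of MVK was lost with median-ratio scaling alone.

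The comparison of Si-FIBP#2 with Si-FIBP#1 asked which of these genes responded differently to the siRNAs, with FIBP itself 0.13 higher on the log2 scale under Si-FIBP#2 (95% interval -0.28 to 0.54, limma adjusted p = 0.69). Of the 34 genes, 4 were higher and 4 lower under Si-FIBP#2, beside 9.58% and 5.8% of all tested genes. None differed by over 2-fold, beside 0.267% higher and 0.294% lower. The 4 higher were SCD, ELOVL5, LBR and INSIG1, and the 4 lower were TM7SF2, ACLY, SREBF2 and ACAT2. After median-ratio scaling 3 were higher and 7 lower, beside 6.86% and 8.08% of all tested genes.

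SCD showed the largest of these differences, 0.52 on the log2 scale (SE 0.06, limma adjusted p = 8.43e-04), with every Si-FIBP#2 sample above every Si-FIBP#1 sample. TM7SF2 was lower under Si-FIBP#2 by the next largest (log2 difference -0.43, SE 0.11, adjusted p = 0.023). For both genes the change against Scramble had the same direction with both siRNAs and was larger under Si-FIBP#1. ACLY (log2 difference -0.40, SE 0.07, adjusted p = 4.34e-03) and ACAT2 (-0.22, SE 0.05, adjusted p = 0.014) were lower under Si-FIBP#2, and LBR (0.29, SE 0.06, adjusted p = 0.011) was higher. Each of these 3 genes passed the test against Scramble with 1 siRNA and missed it with the other, but after median-ratio scaling LBR also fell under Si-FIBP#2 (-0.21, adjusted p = 0.023) and ACAT2 under Si-FIBP#1 (-0.16, adjusted p = 0.045). The differences of LBR, SCD, ACLY and ELOVL5 passed the test under all 14 alternative settings of the fit. The calls of TM7SF2 (log2 difference between -0.51 and -0.39 over the settings, adjusted p up to 0.083), INSIG1 (0.17 to 0.27, up to 0.11) and SREBF2 (-0.29 to -0.20, up to 0.10) were lost with no filter and with single samples left out. For SREBF2 the call was lost without each of the 6 siRNA samples in turn and with TPM scaling, 8 of the 14 settings in all. TM7SF2 was lost without the first or the second Si-FIBP#1 sample and without the first or the third Si-FIBP#2 sample. INSIG1 was lost without the first or the third Si-FIBP#1 sample and without the third Si-FIBP#2 sample, and also with median-ratio scaling and with only the groups compared. That of ACAT2 was lost without the second Si-FIBP#1 sample (-0.20, adjusted p = 0.06).

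FASN, FDPS, GGPS1 and ELOVL6 did not pass this test, though FDPS passed it after median-ratio scaling (limma adjusted p = 0.036) and without the third Si-FIBP#2 sample (-0.17, adjusted p = 0.047), and ELOVL6 without the second Si-FIBP#2 sample (0.35, adjusted p = 0.034). Without that second sample 12 of the 34 genes differed, 6 in each direction, with the share of all tested genes not computed there. CYP51A1 (log2 difference -0.25, adjusted p = 0.13) and DHCR7 (-0.32, adjusted p = 0.069) then passed the test at -0.38 and -0.45 (limma adjusted p = 3.19e-03 and 3.52e-03), and so did FDFT1 (-0.17, then -0.225, adjusted p = 0.078 and 0.017). DHCR7 and FDFT1 passed after median-ratio scaling too (adjusted p = 0.037 and 0.031). FADS1 (0.16, adjusted p = 0.054) passed in 5 of the 14 settings, that sample's omission among them (0.17, adjusted p = 0.036). The 95% interval of the log2 difference was -0.22 to 0.08 for FASN, -0.23 to -0.03 for FDPS, -0.14 to 0.27 for GGPS1 and 0.02 to 0.48 for ELOVL6. These intervals are not adjusted for the number of genes, and a p above the threshold does not show that the siRNAs acted alike. For FASN and GGPS1 they leave room for differences up to about the size seen for ACAT2, and for ELOVL6 up to about that of SCD.

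**Figure D4:**
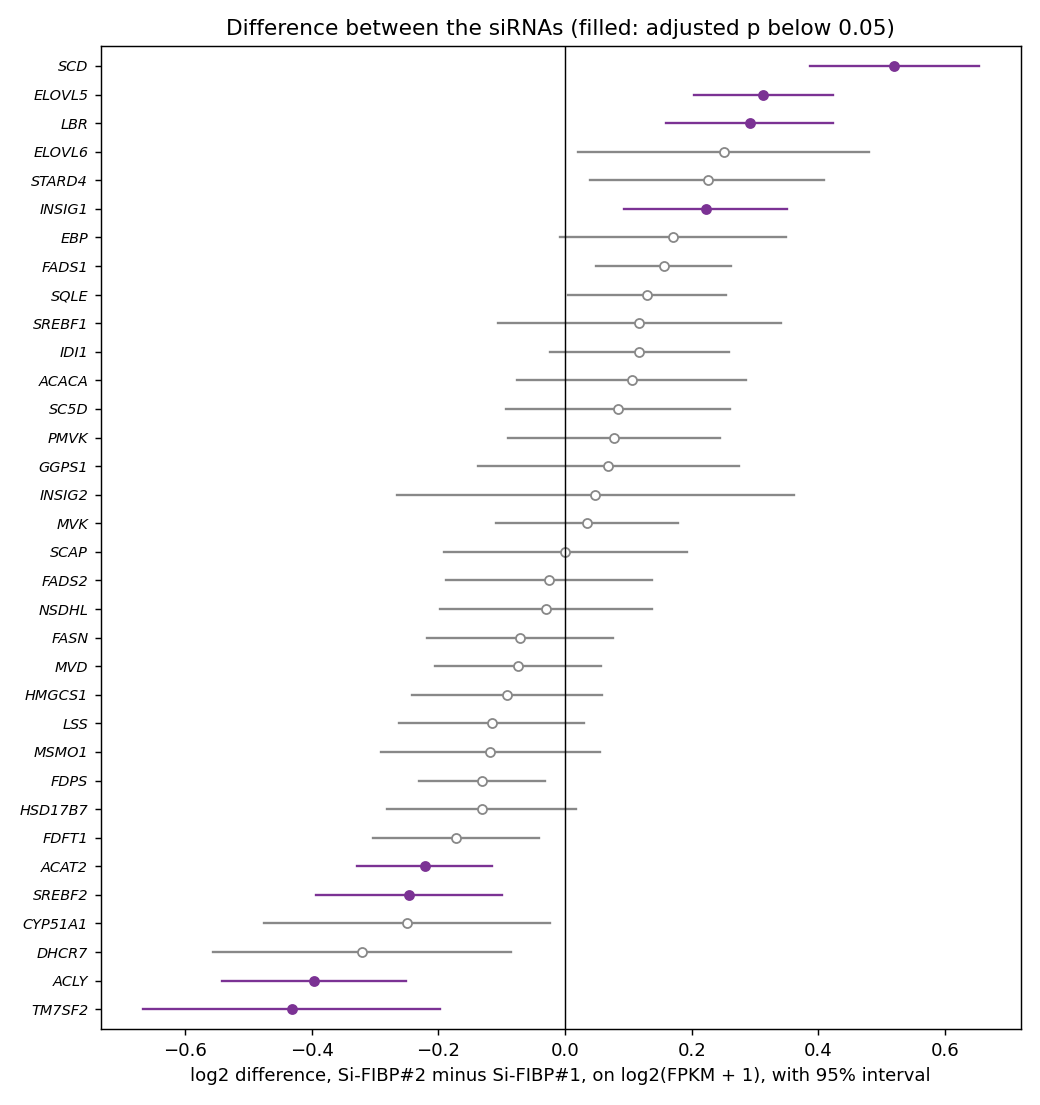
Log2 difference between Si-FIBP#2 and Si-FIBP#1 on log2(FPKM + 1) for each of the 34 genes (points; lines, 95% interval), ordered by size; filled points have an adjusted p below 0.05. SCD (0.52) and TM7SF2 (-0.43) lie at the ends, and 26 genes in between did not pass the test.

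Other lipid genes were counted for context, beside the same shares of all tested genes, 27.8% that rose and 19.9% that fell under Si-FIBP#1 and 31.1% and 17.7% under Si-FIBP#2. After median-ratio scaling these shares were 21.0% and 25.5%, and 20.5% and 26.5%. Of 15 genes of sterol transport, esterification and export, 12 passed the filter; 6 rose and 2 fell under Si-FIBP#1, and 5 rose and 2 fell under Si-FIBP#2, or 5 and 3 and 4 and 3 after that scaling. LIPA, the lysosomal lipase that frees cholesterol from its esters, went from 28.9 FPKM in the Scramble mean to 68.8 and 70.7 FPKM and rose with both (log2 fold change 1.22 and 1.26, SE 0.05, limma adjusted p = 4.38e-07 and 5.92e-07). TMEM97, a sterol-regulated membrane protein, went from 19.7 FPKM to 8.99 and 10.2 FPKM and fell with both (-1.05 and -0.89, adjusted p = 1.1e-05 and 3.31e-05). Of 26 further fatty acid enzymes, 22 passed the filter; 3 rose and 8 fell under Si-FIBP#1, and 9 rose and 4 fell under Si-FIBP#2. After that scaling 2 rose and 10 fell under Si-FIBP#1, and under Si-FIBP#2 the balance turned to 3 up and 8 down. ELOVL4, an elongase of very long chains, went from 6.50 FPKM to 11.8 and 16.8 FPKM and rose past 2-fold under Si-FIBP#2 (log2 fold change 1.25, SE 0.09, adjusted p = 5.26e-06).

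Against the same shares of all genes, of 10 genes of SREBP cleavage and sterol-regulated degradation, 5 rose and 3 fell under Si-FIBP#1, and 3 rose and 1 fell under Si-FIBP#2. After median-ratio scaling the balance turned under Si-FIBP#1, to 2 up and 4 down, and was 2 up and 1 down under Si-FIBP#2. None of the 10 changed by over 2-fold, beside 2.55% of all tested genes that rose and 3.11% that fell past it under Si-FIBP#1, and 2.92% and 2.13% under Si-FIBP#2. Of 11 genes of the isoprenoid branches, 10 passed the filter; 2 rose and 5 fell under Si-FIBP#1, and 2 rose and 2 fell under Si-FIBP#2, or 1 and 6 and 1 and 3 after that scaling. Without it, the medians of the log2 fold change under Si-FIBP#1 and Si-FIBP#2 were 0.22 and 0.07 for transport, -0.07 and 0.07 for the fatty acid enzymes, 0.17 and 0.08 for SREBP cleavage and degradation, and -0.24 and -0.03 for the isoprenoid branches.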

How the data were processed

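Poly(A) RNA of 9 samples of H1299 cells was sequenced in paired ends by the authors, 3 samples each of Scramble, Si-FIBP#1 and Si-FIBP#2. The submitters' processing notes name HISAT2 and StringTie; versions, genome build and annotation release are not given in the sources used here. The deposited tables hold FPKM per transcript, including transcripts that the authors assembled, and no counts, so that no count model was used. FPKM is the unit inferred from the column and its values, and it is relative to the library.

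FPKM were summed over the transcripts of each gene. Of these sums, those reaching 1 FPKM in 3 or more samples entered the test, limma 3.58.1 (R 4.3.3; lmFit, eBayes with trend) on log2(FPKM + 1), all 9 samples in 1 fit, with Benjamini-Hochberg adjustment over all tested genes and a call below 0.05. Fold changes on this scale understate the change of genes of low level. Intervals are at 95% and not adjusted. The steps were tested on simulated data. Plots used matplotlib 3.10.9, and tables pandas 2.3.3 with scipy 1.17.1 and numpy 2.4.6, under Python 3.11.15. Gene positions and overlaps came from GENCODE release 29 through the Ensembl identifiers, and promoter windows from RefSeq (GRCh38.p14).

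All 34 genes are named, with all samples given for those that passed the test with a change over 1.5-fold in a comparison and for SREBF1, SREBF2, INSIG1 and INSIG2; values by sample of other genes were added after they had been seen. The members, the lists and the tests were chosen with earlier results of these data known. Alternatives were TPM or median-ratio scaling, a filter of 5 FPKM or none, a pseudocount of 0.1, Ensembl transcripts only, a replicate block, only the groups compared, each sample left out, and a 2-fold change required as well. Some cholesterol genes outside the 34 are not reported here.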

Additional observations from a re-analysis of the deposited data

Results flagged for a closer look

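The response of 8 of the 34 genes differed between the siRNAs, by the limma test of Si-FIBP#2 against Si-FIBP#1 (Benjamini-Hochberg adjusted p), beside 9.58% of all tested genes that were higher and 5.8% that were lower under Si-FIBP#2. SCD (log2 difference 0.52, adjusted p = 8.43e-04), ELOVL5 (0.31, adjusted p = 3.48e-03), LBR (0.29, adjusted p = 0.011) and INSIG1 (0.22, adjusted p = 0.03) were higher with Si-FIBP#2. TM7SF2 (-0.43, adjusted p = 0.023), ACLY (-0.40, adjusted p = 4.34e-03), SREBF2 (-0.25, adjusted p = 0.034) and ACAT2 (-0.22, adjusted p = 0.014) were lower. The calls of SCD, ELOVL5, LBR and ACLY, 4 of the 8, held under all 14 alternative settings.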

How the results depend on the processing

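The number of the 34 genes called was 20 with Si-FIBP#1, 22 with Si-FIBP#2 and 8 between the siRNAs. With a 2-fold change required as well it was 2, 1 and 0. Leaving out 1 sample gave 13 to 19, 17 to 19 and 5 to 12 genes; the lowest values came without the second Scramble sample (13) and, between the siRNAs, without the first or second Si-FIBP#1 sample (5), and the highest there without the second Si-FIBP#2 sample (12). Other settings gave 17 to 21, 19 to 24 and 6 to 10 genes. Shares of all tested genes called were computed for the main fit, with and without the 2-fold change, and for TPM and median-ratio scaling. The counts of all other settings, the samples left out and the replicate block included, cannot be set against such a share. ELOVL5 with Si-FIBP#2 changed direction with median-ratio scaling (-0.004). With a replicate block, 20, 22 and 8 genes were called; under Si-FIBP#2, EBP was lost (adjusted p = 0.066) and SREBF1 gained (0.035), and it changed no other call. Deviations of same-numbered samples correlated between -0.06 and 0.10 over 9 pairs of samples, and those of differently numbered samples between -0.14 and 0.05. With 3 samples in a group, these values cannot show whether same-numbered samples shared a culture or a batch. Of 52 values that did not pass the test, 16 passed it in some alternative and 17 changed sign in some. The files give no counts, so the counting error of genes of low level is not known.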

Other observations

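Among the further fatty acid enzymes, the elongases moved in both directions. ELOVL1, an elongase of saturated very long chains, was at 141.43 to 145.95 FPKM in Scramble, 84.04 to 93.86 FPKM with Si-FIBP#1 and 78.94 to 106.06 FPKM with Si-FIBP#2. ELOVL2, an elongase of polyunsaturated chains, was at 14.47 to 16.26, 7.32 to 8.11 and 10.17 to 12.32 FPKM in the same order. All depleted samples were below Scramble for both genes, while those of ELOVL4 and ELOVL7 were above it, ELOVL7 at 1.84 to 2.06, 3.18 to 3.28 and 3.32 to 4.01 FPKM. ELOVL1, ELOVL2 and ELOVL7 were picked after their values had been seen.

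Among genes of sterol efflux and receptor turnover, ABCA1, the exporter of cholesterol, was at 1.61 to 1.78 FPKM in Scramble, 3.22 to 4.35 FPKM with Si-FIBP#1 and 2.96 to 5.23 FPKM with Si-FIBP#2, and rose with both (log2 fold change 0.83 and 0.93, limma adjusted p = 2.43e-03 and 1.29e-03). MYLIP, a ubiquitin ligase induced by liver X receptors, was at 5.43 to 6.36, 10.63 to 12.04 and 9.53 to 11.28 FPKM and rose with both (0.82 and 0.76, adjusted p = 7.58e-05 and 1.27e-04). Both were likewise picked after their values had been seen, from the 15 genes of sterol transport, esterification and export. Of the liver X receptor genes on that list, NR1H2 fell with Si-FIBP#2 (log2 fold change -0.30, limma adjusted p = 2.14e-03). NR1H3 passed the test with neither siRNA, and ABCG1 was at 0.08 FPKM or less in every sample.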
